A study of Homo sapiens with 8 samples.

Results

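Estrogen receptor α (ER) binding sites that carried an estrogen response element (ERE) inside a protein-coding gene were examined in LY2 cells with and without knockdown of CDK12. Significant ER ChIP-seq peaks (q-value below 0.05; chromosomes 1 to 22 and X) were merged over 4 libraries wherever they overlapped by 1 bp or more, which gave 25365 sites. A site was kept when an ERE, read as GGTCANNNTGACC with no more than 1 of its 10 fixed bases changed, lay fully within 100 bp of the summit of its most significant peak and when that summit fell in the body of a protein-coding gene of GENCODE release 44. This left 252 genic ERE sites in 248 host genes. An element was found at 484 sites in all (1.91%), and 52.1% of these lay in protein-coding genes, against 46.7% of all 25365 sites.

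LY2 is an endocrine-resistant, ER-positive breast cancer line of the MCF7 lineage that is kept in 4-hydroxytamoxifen (4-OHT). Cells of both groups were deprived of serum for 24 h without 4-OHT, transfected with an siRNA pool against CDK12 (siCDK12) or with control siRNA (siCtrl), and given β-estradiol at 1 µmol/L for 1 h after 48 h of transfection, so that no library lacks estradiol. Peak lists came from replicates 2 and 3 of siCtrl and from replicates 3 and 4 of siCDK12, and the methods state that 1 divergent replicate of each condition was excluded. The inputs, 2 per condition, come without peak lists and were not analysed here. The labels do not tie the replicates to separate cultures, so that p-values measure only the spread between these libraries. Peak lists hold no expression, and the level of CDK12 after knockdown was not checked.

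ER is a nuclear receptor that binds estradiol, dimerises and contacts DNA mainly at the palindromic ERE, in which each receptor of the dimer reads 1 half-site, GGTCA, on its own strand. Most ER binding in breast cancer cells falls in introns and between genes rather than at promoters, and it is found with the pioneer factors FOXA1 and GATA3. CDK12 is a kinase that pairs with cyclin K, phosphorylates the tail of RNA polymerase II and maintains the expression of long genes and DNA repair genes.

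The elements of the members the results turn on are given first, on the plus strand of GRCh38 and with 10 bases either side. Capitals mark the element. A substitution names the base of GGTCANNNTGACC, its position counted from 1 at the 5′ end, and the base at the site. The first set holds members with a peak in all 4 libraries or in 3 of them, among them the strongest ER peaks of the series.
TEX14, chr17:58639816-58639848, no mismatch: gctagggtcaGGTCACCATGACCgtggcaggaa
ITPK1, chr14:93017552-93017584, T3G: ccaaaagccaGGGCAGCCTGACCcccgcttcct
GREB1, chr2:11498719-11498751, T3G: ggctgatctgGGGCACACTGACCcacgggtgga
SPINK4, chr9:33221443-33221475, A11C: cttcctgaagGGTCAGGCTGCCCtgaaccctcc
DOCK1, chr10:127329240-127329272, no mismatch: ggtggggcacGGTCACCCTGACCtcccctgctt
ANO2, chr12:5919358-5919390, A11C: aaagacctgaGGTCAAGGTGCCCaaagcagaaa
IGFBP4, chr17:40448858-40448890, A11C: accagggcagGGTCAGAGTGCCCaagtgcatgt

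The second set holds members that both siCtrl libraries list and that neither siCDK12 library lists, called lost below. The exact elements at EVL, TNS3, SPG7 and BRAT1 show that an uninterrupted palindrome occurred on both sides of this division.
EVL, chr14:100137374-100137406, no mismatch: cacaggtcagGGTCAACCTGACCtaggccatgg
TNS3, chr7:47542213-47542245, no mismatch: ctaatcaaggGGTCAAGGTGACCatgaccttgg
SPG7, chr16:89552947-89552979, no mismatch: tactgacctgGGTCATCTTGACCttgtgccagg
BRAT1, chr7:2539651-2539683, no mismatch: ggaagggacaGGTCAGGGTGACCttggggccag
PTPN1 intron 4, chr20:50573666-50573698, no mismatch: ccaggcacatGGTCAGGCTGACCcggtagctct
PPP2R2C, chr4:6415422-6415454, C13A: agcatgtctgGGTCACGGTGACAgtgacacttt
RARA, chr17:40322482-40322514, G1T: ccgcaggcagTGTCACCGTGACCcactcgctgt
FKBP4, chr12:2796043-2796075, T3G: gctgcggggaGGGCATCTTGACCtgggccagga
NRIP1, chr21:15005485-15005517, C4T: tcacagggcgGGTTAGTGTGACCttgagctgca

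For TEX14, which held the strongest member peak in 3 of the libraries, the 201 bases around the summit (chr17:58639743-58639943) show the element to the left of the middle.
TEX14 window: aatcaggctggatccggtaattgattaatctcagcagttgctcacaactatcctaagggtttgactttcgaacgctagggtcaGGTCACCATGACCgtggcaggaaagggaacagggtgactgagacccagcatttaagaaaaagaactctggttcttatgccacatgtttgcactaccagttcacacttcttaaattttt

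A peak comes with its enrichment over local background as a fold, and with p-values and q-values, all made within its own library. The pileup, which is the number of ChIP fragments stacked at the summit, was worked out from the p-value and the fold. Neither value is normalized between libraries. The background over the whole genome was 7.19 and 7.56 fragments per kb of fragment length in siCtrl against 7.59 and 7.58 in siCDK12. After the q-value filter, siCtrl replicates 2 and 3 kept 12021 and 4955 peaks and siCDK12 replicates 3 and 4 kept 4819 and 5224, so that siCtrl replicate 2 stood apart by the length of its list.

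Genic ERE sites held fewer ER peaks after CDK12 knockdown. Peaks lay in 186 of them in siCtrl replicate 2, 126 in siCtrl replicate 3, 44 in siCDK12 replicate 3 and 29 in siCDK12 replicate 4. The groups did not overlap, and siCtrl replicate 3, whose list was about as long as those of siCDK12, still held more than either. In bulk chromatin, fewer cells with ER at a site and less ER per cell cannot be told apart. The mean number was 156 ± 42.4 in siCtrl and 36.5 ± 10.6 in siCDK12 (SD, n = 2 each), a ratio of 0.234. The two-sided exact permutation test gave p = 0.333, the smallest that 2 libraries against 2 can give.

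The members made up much of the top of the siCtrl lists. Of the 100 most significant peaks, 24 and 25 lay in genic ERE sites in siCtrl against 8 and 6 in siCDK12. Of the strongest 1000, the shares were 10.9% and 8.9% in siCtrl against 1.8% and 1.3% in siCDK12. With equal numbers of peaks per library, the mean difference, siCDK12 minus siCtrl, was thus -8.35 percentage points with no overlap (exact permutation test, two-sided, p = 0.333). Past the first 1000 peaks, the shares were 0.699% and 0.936% in siCtrl against 0.681% and 0.379% in siCDK12, which overlapped. ERE sites outside genes took 9.6% and 7.4% of the strongest 1000 peaks in siCtrl against 2.1% and 1.4% in siCDK12, close to the genic ones. Sites in genes without an element held 5268 and 2349 peaks in siCtrl against 2166 and 2488 in siCDK12, which overlapped (ratio of means 0.611, exact permutation test, two-sided, p = 0.667). Of the strongest 1000 peaks, they took 37.8% and 42.4% in siCtrl against 46.9% and 47.6% in siCDK12. Of the strongest 100, they took 26 in each siCtrl library against 44 and 46 in siCDK12. These shares were higher in siCDK12 with no overlap. In a fixed number of peaks, a lower share at some sites means a higher share at others.

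**Figure D1:**
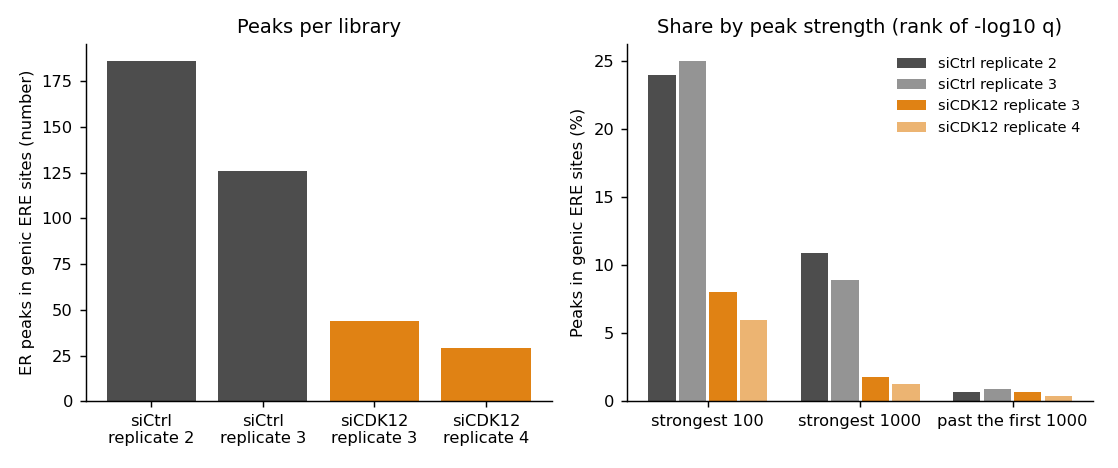
ER peaks in the 252 genic ERE sites. Left, the number of peaks in each library, which runs from 186 and 126 in siCtrl (grey) to 44 and 29 in siCDK12 (orange); right, the percentage of the strongest 100, the strongest 1000 and all weaker peaks of each library that lay in these sites, each bar 1 library, with siCDK12 below siCtrl in the first 2 classes and overlapping in the last.

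Over the 252 members, 94 had a peak in both siCtrl libraries. Of these, 68 had none in siCDK12 (lost), 17 had a peak in 1 siCDK12 library and 9 in both. The mirror case of a lost site, listed in both siCDK12 libraries but not in siCtrl, was called gained and was met by 0 members. Over all 25365 sites, 1.79% were lost, 0.343% were gained and 0.26% had a peak in all 4 libraries. Of the 667 sites listed in both siCtrl libraries, 21.9% had a peak in 1 siCDK12 library and 9.9% in both. Among sites with a peak in both siCtrl libraries, the lost share of the members (72.3%, exact binomial 95% interval 62.2% to 81.1%, counting error only) was near that of all such sites (68.2%). At ERE sites outside genes, 56 of 81 were lost (69.1%). The sites share the same 4 libraries and are not replicates. Without siCtrl replicate 3, when siCtrl replicate 2 alone decided, 157 members counted as lost. Without siCDK12 replicate 3, 14 members counted as gained, and without siCDK12 replicate 4, 20 did.

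The remaining members were seen less often. A single library had the peak at 154 of them, namely siCtrl replicate 2 at 89, siCtrl replicate 3 at 31, siCDK12 replicate 3 at 20 and siCDK12 replicate 4 at 14. This was 61.1% of the 252 members, against 94.8% of all 25365 sites. Another 4 members had a peak in 1 library of each condition. Members found in 1 library had lower pileups than members shared with at least 1 other library. Their median was 12 and 11 fragments in siCtrl and 10 in each siCDK12 library. Shared members had a median of 23 in each siCtrl library and of 17 and 16 in siCDK12. The median over all peaks used was 9 and 11 in siCtrl and 10 in each siCDK12 library.

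Whether a member was lost went with its pileup in siCtrl, and all sites showed a like course. Where the lower siCtrl pileup was under 15 fragments, 22 of 24 members (91.7%) were lost, against 95.7% of all sites in that class. From 15 to 29 fragments, 31 of 37 members (83.8%) were lost, against 84.1%. From 30 to 59 fragments the counts were 15 of 26 members (57.7%) and 50.5% of all sites. With at least 60 fragments in both siCtrl libraries, 0 of 7 members were lost, against 13 of 75 sites in all (17.3%).

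**Figure D2:**
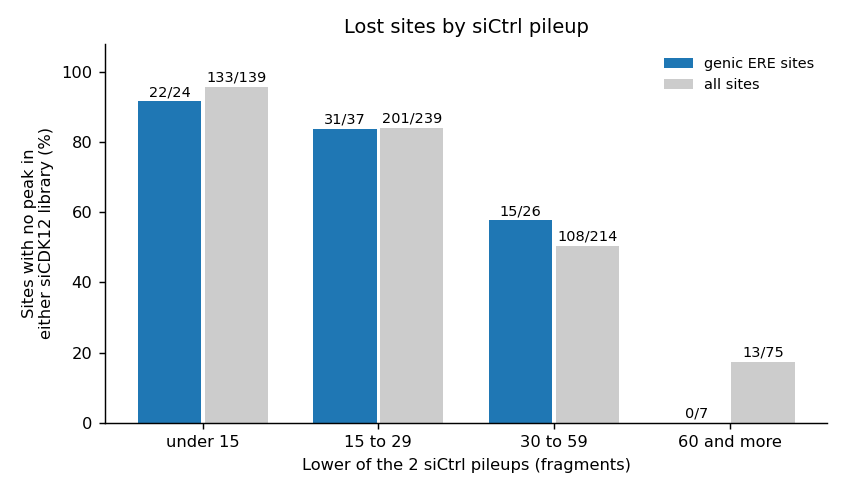
Percentage of sites with a peak in both siCtrl libraries that had none in siCDK12, by the lower of the 2 siCtrl pileups in fragments, for genic ERE sites (blue) and all sites (grey), with the counts above each bar. The share falls from 91.7% of members under 15 fragments to 0 of 7 at 60 or more, and the grey bars fall from 95.7% to 17.3%.

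The 9 members with a peak in all 4 libraries included the strongest ER peaks of the series. The site in TEX14 (ENSG00000121101), a gene of germ cell intercellular bridges, spanned 58639694 to 58639993 on chromosome 17, in its intron 2 (introns and exons are numbered in the canonical transcript). Its pileup was 260 and 314 fragments in siCtrl against 172 and 116 in siCDK12. Every siCDK12 value was below every siCtrl value, and it ranked first in both siCtrl lists, first in siCDK12 replicate 3 and second in siCDK12 replicate 4. The mean pileup was 287 ± 38.2 in siCtrl and 144 ± 39.6 in siCDK12 (SD, n = 2 each), a log2 ratio of -0.99. The local background at TEX14 was 6.40 and 10.9 times the genome background in siCtrl and 13.1 and 19.6 times in siCDK12, and the log2 ratio of its fold enrichment was -1.95.

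ITPK1 (ENSG00000100605) encodes an inositol phosphate kinase, and its site was in intron 3 on chromosome 14, from 93017410 to 93017724. The pileup was 280 and 191 fragments in siCtrl against 58 and 65 in siCDK12. The groups were far apart, yet the site still ranked 2 in both siCtrl lists and 3 and 1 in the siCDK12 lists. The siCDK12 mean was 26.1% of the siCtrl mean, a log2 ratio of -1.94.

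GREB1 (ENSG00000196208) is an estrogen-induced gene whose product works with ER. Its member lay 35310 bp upstream of the canonical start and inside the gene body through 1 of its 10 annotated transcripts, on chromosome 2 from 11498595 to 11498875. The pileup was 117 and 109 fragments in siCtrl against 38 and 26 in siCDK12. The siCtrl values were close together and both well above siCDK12, with means of 113 ± 5.66 and 32 ± 8.49 (SD, n = 2 each) and a log2 ratio of -1.82.

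SPINK4 (ENSG00000122711) encodes a secreted serine protease inhibitor, and its site was 18744 bp upstream of the canonical start on chromosome 9, from 33221279 to 33221567. The pileup was 94 and 103 fragments in siCtrl and 24 in each siCDK12 library. This was the lowest ratio among the 9 members, with siCDK12 at 24.4% of siCtrl. At GATA4 (ENSG00000136574), the gene of a zinc finger transcription factor, the site in intron 2 had 102 and 65 fragments in siCtrl against 23 and 24 in siCDK12. The siCtrl values differed more from each other than the siCDK12 values did, and the groups did not overlap.

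The exact element in intron 29 of DOCK1 (ENSG00000150760), which encodes an activator of the GTPase Rac, had 59 and 36 fragments in siCtrl against 20 and 16 in siCDK12. Intron 3 of TMEM120B (ENSG00000188735), the gene of a membrane protein, had 60 and 55 fragments in siCtrl against 25 and 16 in siCDK12. A site shared by the bodies of ADAMTSL5 (ENSG00000185761) and PLK5, 247 bp upstream of the canonical ADAMTSL5 start, had 56 and 34 fragments in siCtrl against 14 and 12 in siCDK12. At these 3 sites as well, the higher siCDK12 value was below the lower siCtrl value.

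ANO2 (ENSG00000047617), the gene of a calcium-activated chloride channel, was the exception. Its site in intron 3, on chromosome 12 from 5919249 to 5919677, had 15 and 17 fragments in siCtrl against 19 and 12 in siCDK12. The groups overlapped, and the log2 ratio was -0.05. It was the weakest of the 9 in siCtrl, and 4 matches to the element lay in its window, against a single match at most members.

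The pileup was lower in both siCDK12 libraries than in both siCtrl libraries at 8 of these 9 members, against 71.2% of the 66 sites of all kinds with a peak in all 4 libraries. For the fold enrichment the counts were 8 of 9 and 77.3%. The median siCDK12 pileup was 28.9% of siCtrl at the members and 39.9% at all 66 sites, and the median log2 ratio of fold enrichment was -1.95 at the members, -1.16 at all 66 sites and -1.45 at the 7 ERE sites outside genes. At 8 of the 9 members, at least 1 library had a local background more than 3 times the genome background, and ANO2 was the other one. Without these 8 members ANO2 alone remained, with a log2 ratio of fold enrichment of 0.09, so that the direction of the fold ratio rests on members with a high local background. With pileup in place of fold, the median log2 ratio over the 9 members was -1.79. Both of these alternatives were chosen after the data were seen.

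At 17 members a peak remained in 1 siCDK12 library. IGFBP4 (ENSG00000141753) encodes a secreted protein that binds insulin-like growth factors, and its site in intron 1, on chromosome 17 from 40448704 to 40448997, had 105 and 89 fragments in siCtrl, 26 in siCDK12 replicate 3 and no peak in siCDK12 replicate 4. Intron 3 of PEMT (ENSG00000133027), a gene of phosphatidylcholine synthesis that was named after its values were seen, had 89 and 69 fragments in siCtrl, no peak in siCDK12 replicate 3 and 15 fragments in siCDK12 replicate 4. In both genes the peak that was left stood far below siCtrl.

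Over the 17 members, the siCDK12 pileup ran from 19.0% to 81.2% of the siCtrl mean, with a median of 47.7%. At 15 of 17 it was below both siCtrl values, against 50.7% of the 146 sites of all kinds with this pattern. For fold enrichment the counts were 15 of 17 and 64.4%. The siCDK12 value of these members exists only where it passed the q-value threshold.

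Lost members ranged from 9 to 69 fragments in siCtrl replicate 2, with a median of 22, and from 9 to 58 in siCtrl replicate 3, with a median of 19.5. The lowest pileup among the siCDK12 peaks used was 8 fragments, but the pileup a peak needed rose with its local background. In the full lists, which go down to a p-value of 0.001, BRAT1 was the 1 member of the 68 with a siCDK12 peak that missed the q-value, of 19 fragments in siCDK12 replicate 3. A pileup at a site without a listed peak is not known, so that no fold was formed for lost sites.

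The strongest lost members are given gene by gene. EVL (ENSG00000196405), whose product promotes actin filament growth, had 56 and 46 fragments in siCtrl at an exact element in intron 9. TNS3 (ENSG00000136205), the gene of a focal adhesion protein, had 59 and 53 at an exact element in intron 1. ACTN4 (ENSG00000130402), which encodes an actin crosslinking protein, had 53 and 36 in intron 9. No siCDK12 peak was listed at any of these sites.

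PPP2R2C (ENSG00000074211), the gene of a regulatory subunit of protein phosphatase 2A, had 64 and 52 fragments in siCtrl in intron 1. RPS6KL1 (ENSG00000198208), a gene of the ribosomal S6 kinase family, had 49 and 58 in intron 1, at 699 bp from the canonical start. BRAT1 (ENSG00000106009), whose product binds BRCA1 and ATM in the DNA damage response, had 49 and 45 in intron 11. For all 3 genes the siCtrl libraries were within 1.5 times of each other.

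SPG7 (ENSG00000197912), which encodes a mitochondrial protease, had 52 and 38 fragments at an exact element in intron 13. OXR1 (ENSG00000164830), a gene of oxidative stress resistance, had 41 and 43 in intron 3. CACNA1I (ENSG00000100346), the gene of a T-type calcium channel, had 33 in each siCtrl library in intron 10. PTPRN2 (ENSG00000155093), which encodes a phosphatase-like protein of secretory vesicles, had 33 and 31 in intron 11. These sites lay from 44571 to 600385 bp inside their genes, counted from the canonical start.

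**Figure D3:**
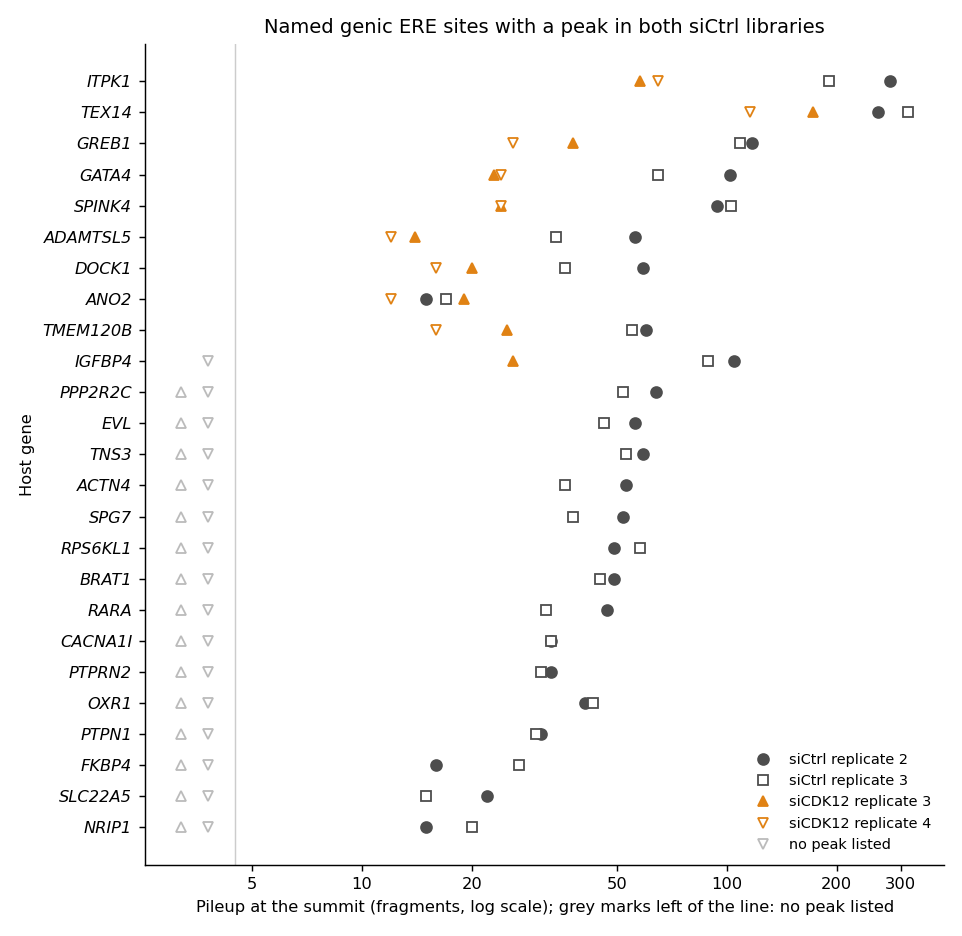
Pileup at the summit in fragments, on a log axis, for the 25 named genic ERE sites with a peak in both siCtrl libraries, each symbol 1 library (siCtrl grey, siCDK12 orange). The first 9 genes had a peak in all 4 libraries, and all of these but ANO2 have both orange symbols left of both grey ones; grey open symbols left of the line mark libraries with no listed peak.

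PTPN1 (ENSG00000196396), the gene of a protein tyrosine phosphatase that acts on the insulin receptor, held 2 members on chromosome 20. The site in intron 3, from 50566435 to 50566673, had 41 and 38 fragments in siCtrl, no peak in siCDK12 replicate 3 and 12 fragments in siCDK12 replicate 4. The site in intron 4, from 50573543 to 50573764, carried an exact element, had 31 and 30 fragments in siCtrl and was lost. In all, 17 genes held 2 members and none held 3. CD276, an immune checkpoint gene, was the other gene whose members were both present in both siCtrl libraries: its intron 8 site had 23 fragments in each siCtrl library and 9 in siCDK12 replicate 3, and its intron 1 site had 19 and 11 in siCtrl and was lost.

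Of a list of 50 genes of the estrogen response, 8 held a member (16%), against 1.24% of all 19962 protein-coding genes. A lost member was held by 4 of these 8, against 71 of all 248 host genes. The list includes genes that the study picked on these libraries, so its count is not independent evidence. Beside GREB1 and IGFBP4 it held 4 genes with a lost member. RARA (ENSG00000131759), the retinoic acid receptor α gene, had 47 and 32 fragments in siCtrl in intron 1. FKBP4 (ENSG00000004478), the gene of an HSP90 co-chaperone of steroid receptors, had 16 and 27 in intron 1. SLC22A5 (ENSG00000197375), the carnitine transporter gene, had 22 and 15 in intron 2. NRIP1 (ENSG00000180530), which encodes a corepressor of nuclear receptors, had 15 and 20 in intron 3. The named lost sites of this list other than RARA were thus in the lower range of siCtrl pileups, where most sites of any kind were lost. SLC7A5, an amino acid transporter gene, and MREG, a gene of melanosome transport, had a peak in a single siCtrl library.

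The other lists are given by their counts, beside the 1.24% of all protein-coding genes, and no list was tested against another. RARA, NRIP1 and IGFBP4 were already counted in the estrogen response list. The study also names these genes for ER binding, so the counts that hold them are not independent evidence. Of 33 nuclear receptor and coregulator genes, RARA and NRIP1 held a member (6.06%). Both members were lost, where 71 of all 248 host genes held a lost member. Of 33 growth factor signalling genes, IGFBP4 and RPS6KL1 did (6.06%). Of 36 adhesion and cytoskeleton genes, TNS3 and ACTN4 did (5.56%). Of 34 cell cycle and DNA repair genes, BRIP1, a DNA helicase gene, held 1 (2.94%), seen in siCtrl replicate 3 only with 82 fragments over 36.4 times the genome background. Among the genes the study names for ER binding, ABCA3, SERPINA1 and ASB13 held no member, and neither did ESR1, MED1 or CDK12.

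By the canonical transcript, 196 of 252 were intronic (77.8%), 52 of them in intron 1, 24 were exonic, 21 lay upstream and 11 downstream of it but within the gene body. Within 1 kb of the canonical start there were 4 members (1.59%), against 0.777% of all 11846 sites in protein-coding genes, and 211 members (83.7%) were over 10 kb away. Counted from the start of any annotated transcript of a host gene, 27 members (10.7%) lay within 1 kb, against 6.85% of all sites in protein-coding genes. Of the 94 members with a peak in both siCtrl libraries 15 did (16.0%), among them RARA at 506 bp and EVL at 300 bp, against 48 of the 344 sites in genes that the siCtrl libraries shared. The host genes had a median length of 139796 bp over all members and of 105672 bp over lost members. Chromosome 17 carried 23 members (9.13%, against 4.84% of all sites) and chromosome 19 carried 14 (5.56% against 1.52%). Chromosomes 9, 10 and 22 also held a larger share of members than of all sites, and chromosomes 3 and 8 a smaller one. Members lie in protein-coding genes by the rule and all sites do not, so these shares do not have a like base. The lengths were not set against those of other genes.

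An exact element was more common among members seen in both siCtrl libraries. It occurred at 32 of 252 members (12.7%), at 20 of the 94 with a peak in both siCtrl libraries (21.3%), at 12 of the 154 seen in 1 library (7.79%) and at 2 of the 34 seen in 1 siCDK12 library only. Among the 68 lost members 17 were exact (25%), and among the 9 present throughout, TEX14 and DOCK1 were. Outside genes, 29 of 232 ERE sites were exact (12.5%). By -log10 q percentile, the strongest exact member seen in 1 library was in exon 5 of SSR3 (ENSG00000114850), a gene of the translocon-associated protein complex, with 24 fragments in siCtrl replicate 2.

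Where the element had a mismatch, it fell most often on the middle base of the half-site. Counted from the outer end of either half-site, the 220 members with a mismatch had it on base 1 in 54, base 2 in 21, base 3 in 82, base 4 in 24 and base 5 in 39. ITPK1, GREB1, RPS6KL1, CACNA1I, PTPRN2 and FKBP4 all carried T3G, the most frequent substitution (21 of 220), and SPINK4, ANO2 and IGFBP4 carried A11C, its mirror image on the other half-site (15 of 220). T3G occurred in 12 of the 74 members with a mismatch and a peak in both siCtrl libraries (16.2%). These counts describe the peaks of 4 lists and were not compared with the letters of the genome.

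The element sat nearer the summit at members seen in both siCtrl libraries. The median distance between the centre of the element and the summit was 16.5 bp for these 94, 8 bp for the 9 present throughout, 18 bp for lost members, 27.5 bp for the 120 seen in 1 siCtrl library only and 51.5 bp for the 34 seen in 1 siCDK12 library only. Within 50 bp lay 92.6% of the 94 and 44.1% of the 34. Within 10 bp lay 33.0% of the 94 and 0 of the 34. Members found in 1 siCDK12 library also had lower pileups, from 8 to 29 fragments in replicate 3 and from 8 to 53 in replicate 4, each with a median of 10. The part of pileup in the distance was not tested.

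**Figure D4:**
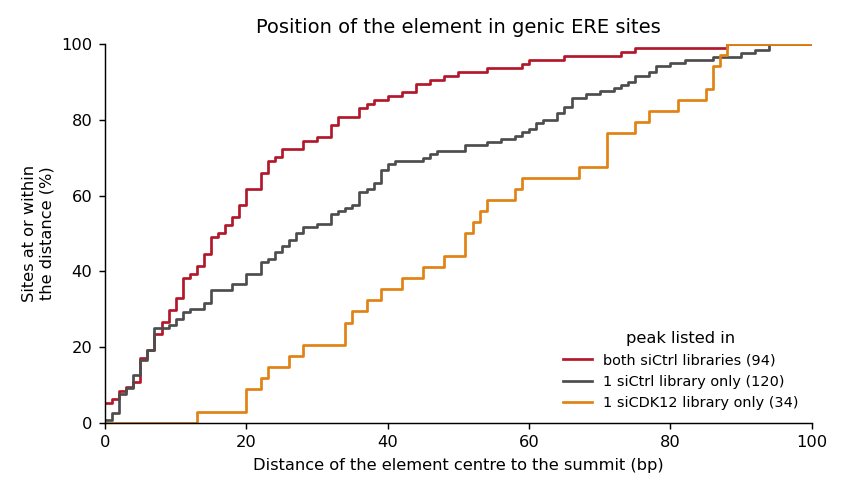
Cumulative percentage of genic ERE sites whose element centre lay at or within a given distance of the summit in bp, for 94 sites with a peak in both siCtrl libraries (red), 120 in 1 siCtrl library only (grey) and 34 in 1 siCDK12 library only (orange). The orange curve runs below the others over most of the range, with a median of 51.5 bp against 16.5 bp for the red one.

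Distances were also taken to each library's own summit. At members seen in 1 library this is the summit already used above, so only the shared members add to the comparison. At members shared with at least 1 other library, the element lay within 20 bp of the summit at 58.8% and 57.9% of them in siCtrl, and at 62.5% and 53.3% of them in siCDK12. At members seen in that library alone, it did so in 41.6% and 32.3% in siCtrl, and in 15% and 0% in siCDK12. Shared members thus had the element at a like distance in all 4 libraries.

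Further half-sites were frequent around the element. Outside the element, a GGTCA on either strand was found in the 201 bp window of 147 members (58.3%), of 71 of the 94 shared by the siCtrl libraries (75.5%) and of 75 of the 154 seen in 1 library (48.7%). All sites without an element held one in 35.7% of windows, and those of them with a peak in both siCtrl libraries in 62.4%. TGANTCA, a motif of AP-1, was found on either strand in 7.14% of member windows and 6.49% of all windows. TGTTTNC, of forkhead factors such as FOXA1, was found in 8.33% of members, 12.1% of all sites and 19.0% of ERE sites outside genes. AGATAA, of GATA factors, was found in 8.33% of members and 7.27% of all sites. A match is a description of the letters in the window and not of a bound factor.

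The 2 siCtrl libraries gave like pileups at the 94 members they shared. Replicate 2 was higher at 60, replicate 3 at 29 and they were equal at 5, and the median ratio of replicate 2 over replicate 3 was 1.12. From site to site, the log2 ratio between these libraries had an SD of 0.39. Only members that passed the q-value threshold in both libraries enter this comparison. Another 120 members had a peak in 1 siCtrl library and in no other library.

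**Figure D5:**
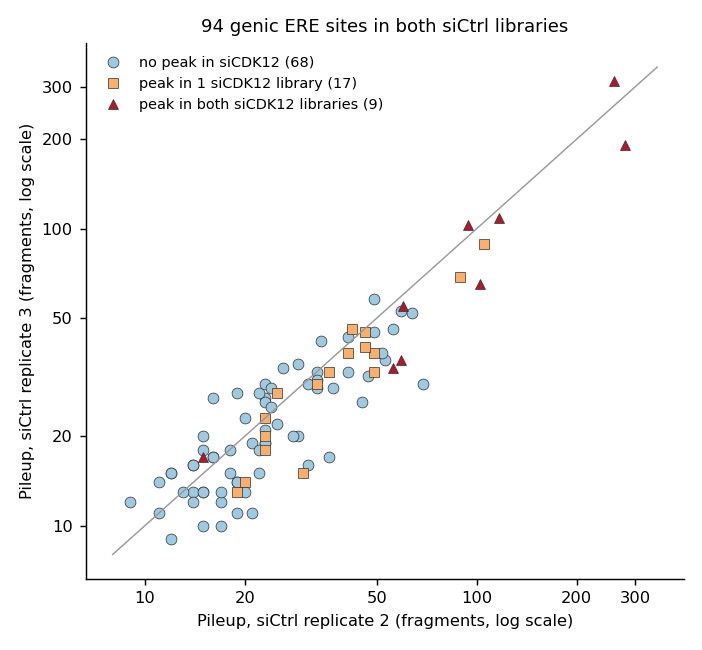
Pileup in fragments in siCtrl replicate 2 (x, log axis) and siCtrl replicate 3 (y, log axis) for the 94 genic ERE sites with a peak in both, each point 1 site, with the line of equal values. The 68 lost sites (blue circles) reach 69 fragments at most, and the 9 sites present in all 4 libraries (red triangles) have at least 34 fragments in both libraries except ANO2.

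Some members lay in regions of high background. In at least 1 library, the local background was more than 3 times the genome background at 21.8% of the members. This was so at 11.0% of all sites, 11.9% of sites in genes without an element and 24.6% of ERE sites outside genes. Of the 94 members that both siCtrl libraries held, 40.4% had such a background, against 56.7% of all sites that these libraries shared. Of lost members 33.8% did, against 47.3% of all lost sites. The local background exceeded 10 times the genome background at 7 members. Of these, TEX14, BRIP1 and BCAS3 lie on chromosome 17 and BMP7, SULF2 and 2 sites of DOK5 on chromosome 20. At BMP7, which encodes a bone morphogenetic protein, siCDK12 replicate 4 had 53 fragments over 23.7 times the genome background. At the intron 1 site of DOK5, the gene of a docking protein, siCtrl replicate 2 had 40 fragments and siCDK12 replicate 4 had 51, so this member was not lower in siCDK12. Without members over 3 times the genome background, 45 of the 56 left with a peak in both siCtrl libraries were lost (80.4%), a choice made after the data were seen.

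At the edges of the rule, the member whose most significant peak was weakest was in LGR6, with a -log10 q of 1.32, and the nearest site left out was in C17orf67, with 1.29. In all, 28 sites that met the rest of the rule were left out by the q-value. The member in ITPR1 had its element centre 94 bp from the summit, and the site in SGO2 was left out at 95 bp. The member summit nearest to the edge of its gene was in LGALS2, 139 bp inside, and a site 59 bp beyond CBY2 was left out.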

How the data were processed

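ER ChIP-seq of LY2 cells was analysed from 4 peak lists, 2 per condition. The authors aligned reads to GRCh38 with BWA and called peaks in each library with MACS2 (submitters' processing notes; versions are not given in the sources used here). The deposited fold is the ratio of summit pileup to local background. The deposited p-values and q-values, also for the summit, are on a −log10 scale, and the deposited score is the −log10 p-value times 10 without its decimals. The lists go down to a p-value of 0.001, so the stated q-value of 0.05 was applied, which removed 20.4% to 28.1% of peaks.

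Pileup was solved from the Poisson p-value and the fold, with 1 added to pileup and to background, and was whole to a tolerance of 0.01 in −log10 p for at least 99.9% of peaks of each library. Read numbers are not part of peak lists, and DiffBind, which needs them, was not repeated. Peaks were compared by presence, rank and pileup, with two-sided exact permutation tests over libraries. The functions were tested on simulated peaks and planted elements. Genes were those of GENCODE release 44 and sequences those of the GRCh38 reference.

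The members and gene lists were chosen with earlier results of these data known. Named genes were those the study names for ER binding, the 10 strongest lost members by −log10 q percentile, members present in all 4 libraries, up to 8 exact elements, the strongest member per library, members of the lists seen in at least 2 libraries and those at the thresholds; others named were chosen after their values were seen. The alternatives tried were −log10 q from 3 upward, a fold of at least 5, all deposited peaks, a 50 bp element window, canonical transcripts, windows around summits, other numbers of strongest peaks and each library left out. Computation used SciPy 1.17.1, numpy 2.4.6 and pandas 2.3.3 under Python 3.11.15, with pysam 0.24.0 for sequences and matplotlib 3.10.9 for plots.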

Additional observations from a re-analysis of the deposited data

How the results depend on the processing

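With 2 libraries per condition, the smallest exact p is 0.333, so no comparison could pass 0.05. No paired analysis was possible because siCtrl and siCDK12 have replicate 3 alone in common. Of 69 values under alternatives, 58 were counted as unchanged, which did not always mean the same size. Among them, the peak number ratio with a fold of at least 5 was 0.096, against 0.234 in the main setting. With other numbers of strongest peaks, the difference in their share was -15.5 and -3.35 percentage points, against -8.35 in the main setting. With a fold of at least 5, the median log2 fold ratio at members present in all 4 libraries was -1.58 over 3 members. Without members whose local background passed 3 times the genome background, an alternative added after the data were seen, 45 members were lost, and that median was 0.090, since ANO2 alone remained; pileup in place of fold, added likewise, gave -1.79.

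Leaving out each library in turn, the peak number ratio ran from 0.186 to 0.29 and the difference in the strongest 1000 from -9.5 to -7.3. Lost members ran from 73 to 157 and the lost share from 77.7% to 85.1%, with 157 lost without siCtrl replicate 3, where 1 siCtrl library sufficed. Gained members ran from 0 to 20, with 14 without siCDK12 replicate 3 and 20 without siCDK12 replicate 4, where 1 siCDK12 library sufficed. The median log2 fold ratio ran from -2.22 to -1.48. Binding at a lost site that gave too few fragments over its local background was not detectable: at BRAT1 a siCDK12 peak of 19 fragments missed the q-value.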
